A study of Homo sapiens with 27 samples.

Results

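DLD-1 cells resistant to fluorouracil (5-FU res) were compared with untreated DLD-1 cells (WT), with 3 libraries in each group and thus 6 of the 27 libraries of the series. They were taken by their titles. DLD-1 is a human colorectal cancer (CRC) cell line. The series held DLD-1, HCT116 and SW480 cells, each as 5-FU res, oxaliplatin-resistant (OX res) and WT cells, and measured messenger RNA with 1 library of 100-base single reads per sample. The design text gives 5 to 70 µM fluorouracil for 5-FU res and 5 to 35 µM oxaliplatin for OX res, with about 6 months in culture. WT cells carry the label negative control. All groups grew in the same low-glucose medium with serum. The steps by which resistant cells were obtained are described for HCT116 and SW480 only, and whether the drug was present at harvest, or whether DLD-1 WT cells were passaged alongside, is not given in the sources used here. No source says that replicate libraries derive from separate cultures. The p-values therefore reflect library-to-library spread, part or all of which may be technical.

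Fluorouracil is a pyrimidine analogue that cells convert to nucleotides, which block thymidylate synthase and enter RNA and DNA. Proteins that misfold in the endoplasmic reticulum (ER) activate the unfolded protein response through the sensors IRE1, PERK and ATF6, which raise ER chaperones and the machinery that degrades ER proteins. PERK also leads to translation of ATF4, a transcription factor shared with amino acid shortage, whose targets include amino acid transporters, tRNA synthetases and the factor CHOP (DDIT3). In the colon, differentiated surface cells are marked by genes such as KRT20 and members of the CEACAM family, and many CRC lines keep part of this programme.

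Values are TPM, the FPKM of a gene divided by the sum over its library and scaled so that every library has the same total. Genes were compared on log2(TPM + 1) with limma, and log2 fold changes on this scale understate the change of genes with low values. Adjusted p-values are Benjamini-Hochberg values over all genes tested, and ± after a log2 fold change gives its standard error. Of 26255 genes, 13467 reached 1 TPM in at least 3 of the 9 DLD-1 libraries and were tested. The sum of FPKM ran from 501041 to 540268 in 5-FU res and from 499557 to 515400 in WT. Relative depth, read from the smallest steps of low values with the deepest WT library set to 1, was 0.820 to 0.950 in 5-FU res and 0.865 to 1 in WT, and the number of reads is unknown. Correlations between libraries of a group ran from 0.992 to 0.993. The epithelial markers EPCAM, KRT8, KRT18, KRT19 and CDH1 were abundant in all 6 libraries, with KRT8 reaching 4877 TPM, while CDX1 and VIL1 were below 1 TPM in all 6. Summed TPM of the 15 colorectal epithelial markers was 9515 to 10356 in 5-FU res and 9906 to 10232 in WT. Of the 13 tested, 1 was higher and 10 lower in 5-FU res at an adjusted p under 0.05, with a median of -0.92 on the log2 scale. Over all genes tested, 20.5% were higher and 25.9% lower. Markers of other cell types were near 0. Of the lists of such markers, 11 of 12 for fibroblasts, 11 of 15 for leukocytes and 10 of 12 for endothelial cells were below 1 TPM in all 6 libraries, and their sums were 1.93 to 2.98, 6.85 to 8.80 and 4.79 to 5.52 TPM in 5-FU res, against 1.41 to 1.93, 8.43 to 9.78 and 6.51 to 9.34 TPM in WT. COL1A2, DCN, CD3E, KDR and EMCN were at 0 in all 6.

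In 5-FU res cells, 286 genes rose and 237 fell by more than 1 on the log2 scale at an adjusted p under 0.05, which is 2.12% and 1.76% of the genes tested. At the adjusted p alone, 2765 genes (20.5%) were higher and 3483 (25.9%) lower, and the median over all genes was -0.03 on the log2 scale. The 3 libraries of each group did not overlap for 56.2% of all genes tested and for 520 of the 523 changed genes. A lack of overlap was therefore common, and the genes named for the largest changes were chosen among those that showed it. With median-of-ratios scaling, 307 genes rose and 226 fell.

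**Figure D1:**
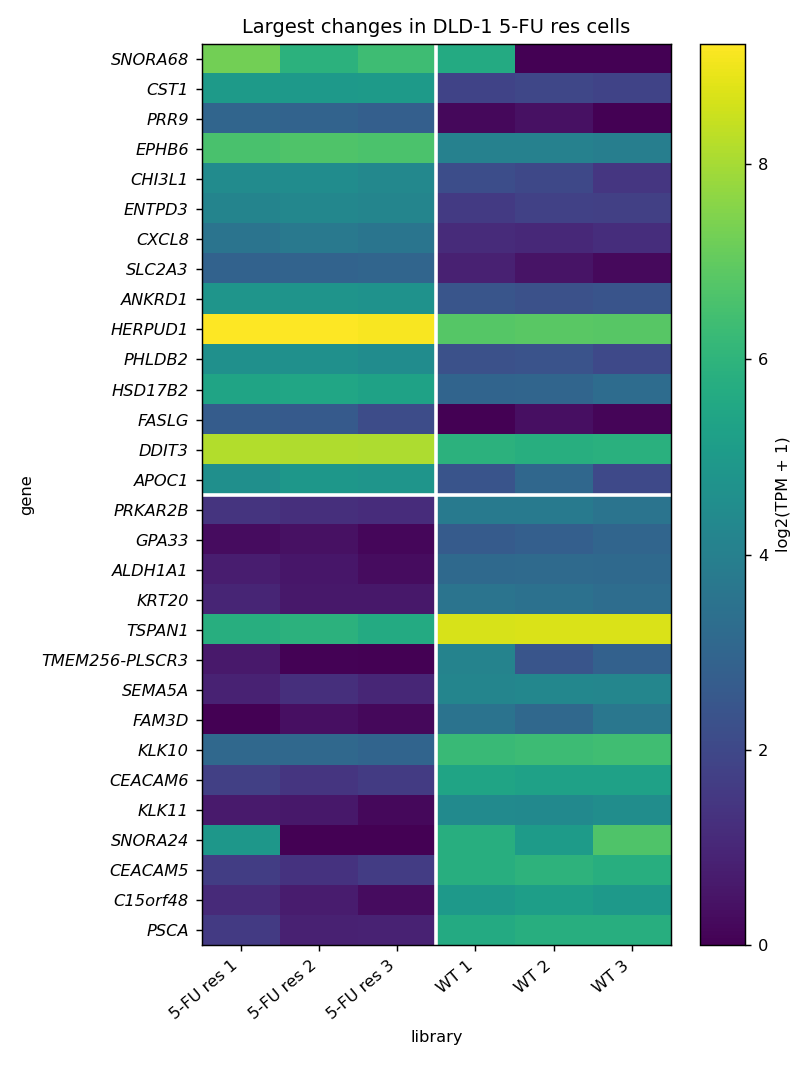
Heat map of log2(TPM + 1) in the 3 5-FU res libraries (left) and the 3 WT libraries (right) for the 15 genes with the largest rise (top) and the 15 with the largest fall (bottom) among changed genes whose groups did not overlap. For most genes the colour is even within a group. The small RNA entries SNORA68 and SNORA24 are uneven, with 154, 59.8 and 81.7 TPM in 5-FU res against 48.8, 0 and 0 TPM in WT for SNORA68.

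Genes of the unfolded protein response were higher in 5-FU res cells. All 29 members of this list were tested, 25 rose, 1 fell and 3 did not pass, with a median log2 fold change of 0.92. By comparison, 20.5% of all genes tested rose and 25.9% fell. This and the other lists were chosen with earlier results of these data known. HSPA5, which encodes the main ER chaperone BiP, had 1786, 1794 and 1635 TPM in 5-FU res and 487, 483 and 488 TPM in WT. The groups lay far apart, and the log2 fold change was 1.84 ± 0.04 (adjusted p = 5.52e-11). This was also the gene with the largest gain in TPM among the changed genes. HERPUD1, a membrane protein of ER-associated degradation, had 592, 599 and 565 TPM in 5-FU res, against 110.2, 114 and 114 TPM in WT, and its change of 2.36 ± 0.04 was the largest of the list. DNAJB9, a co-chaperone of BiP, had 71.2, 71.5 and 62.6 TPM in 5-FU res and 13.9, 13.8 and 14.7 TPM in WT, a log2 fold change of 2.2 ± 0.08. SDF2L1, which works with ER chaperones, had 206, 217 and 208 TPM in 5-FU res and 62.5, 63.2 and 60.3 TPM in WT. In each of these genes every 5-FU res library stood well above every WT library.

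The disulfide isomerase PDIA4 had 606, 620.2 and 563 TPM in 5-FU res and 245, 247 and 237 TPM in WT. The secreted ER protein MANF had 521, 530.3 and 501 TPM in 5-FU res and 185, 189 and 184 TPM in WT. Genes outside the naming rule, given here after their values were seen, show how the rise was spread over the pathway. Among the sensors, ERN1 (IRE1) rose by 0.71 and EIF2AK3 (PERK) by 0.78 on the log2 scale, while ATF6 had 0.15 (adjusted p = 0.0684). XBP1, the transcription factor whose RNA IRE1 splices, rose by 0.71, from which no splicing can be read. The chaperones HSP90B1 (0.85) and CALR (0.72) and the degradation genes SEL1L (0.95) and EDEM1 (1.05) rose as well. Calnexin (CANX, 0.06, adjusted p = 0.325) and EDEM2 (0.01, adjusted p = 0.920) did not pass, and OS9, a lectin of ER-associated degradation, fell by 0.20.

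The ER stress response element, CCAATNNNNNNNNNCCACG on either strand, is the site of ATF6 with NF-Y. It was searched in the 300 bases around the start of each gene (RefSeq, GRCh38.p14), where 27 of 35116 promoters (0.0769%), from 25 of 27305 genes (0.0916%), held it. Of the 29 members, 27 had a promoter in the table and 7 held the element, namely HSPA5, HSP90B1, CALR, CANX, PDIA6, CRELD2 and XBP1. The stretches before the start of 4 of them that rose are shown, with the element in capitals. CALR (0.72) and PDIA6 (0.39) rose too and are not shown.
HSPA5 chr9:125241344-125241463, minus strand: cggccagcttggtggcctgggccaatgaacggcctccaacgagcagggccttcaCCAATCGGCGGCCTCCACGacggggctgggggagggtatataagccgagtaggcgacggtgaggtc
HSP90B1 chr12:103930190-103930409, plus strand: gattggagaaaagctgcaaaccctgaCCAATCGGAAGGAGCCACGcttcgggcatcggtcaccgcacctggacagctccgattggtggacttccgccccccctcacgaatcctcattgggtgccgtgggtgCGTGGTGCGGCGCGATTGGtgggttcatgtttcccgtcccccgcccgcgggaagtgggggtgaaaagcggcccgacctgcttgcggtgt
CRELD2 chr22:49918514-49918633, plus strand: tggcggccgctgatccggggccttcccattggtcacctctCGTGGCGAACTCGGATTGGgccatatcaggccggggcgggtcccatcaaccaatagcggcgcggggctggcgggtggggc
XBP1 chr22:28800570-28800689, minus strand: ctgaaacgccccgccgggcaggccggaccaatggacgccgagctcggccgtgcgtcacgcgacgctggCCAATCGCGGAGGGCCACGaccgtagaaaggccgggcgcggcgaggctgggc
The element began 66 bases before the start in HSPA5, 52 in XBP1 and 80 in CRELD2, and HSP90B1 held it at 194 and 89 bases before the start, the second on the opposite strand. CRELD2, a secreted ER protein, rose by 1.23. CANX held the element in several promoters of its alternative starts, with the same letters each time, which may be a single site. It did not pass the test. HERPUD1, DNAJB9 and SDF2L1 held no match of these letters in this window.

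Targets of ATF4 were higher as well. Of 37 genes, 35 were tested, 33 rose and the other 2 did not pass, with a median log2 fold change of 0.61. Over all genes tested, 20.5% rose. This list shares no gene with the list above. DDIT3, the factor CHOP, had 286, 282 and 273 TPM in 5-FU res and 60.5, 53.6 and 57.2 TPM in WT, a log2 fold change of 2.28 ± 0.08 (adjusted p = 1.36e-09). ATF3, a stress-induced transcription factor, had 40.7, 38.8 and 37.7 TPM in 5-FU res and 10.7, 9.52 and 8.61 TPM in WT (1.92 ± 0.08). FGF21, an endocrine factor released under amino acid shortage and ER stress, had 5.46, 5.58 and 7.87 TPM in 5-FU res and 1.39, 0.237 and 0.858 TPM in WT (2.03 ± 0.23). DDIT3 and ATF3 were even within each group and FGF21 was low and more variable, yet no library overlapped in any of the 3 genes. SESN2, a stress-induced inhibitor of mTORC1 signalling, had 60.5, 63 and 59.7 TPM in 5-FU res and 22.4, 25.5 and 23.1 TPM in WT.

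ATF4 itself, named after its value was seen, had 1445, 1426 and 1322 TPM in 5-FU res and 958, 963 and 983 TPM in WT (0.53, adjusted p = 1.73e-06), a smaller difference than that of its leading targets. SLC7A11, which imports cystine, had 48, 50.5 and 44 TPM in 5-FU res and 20, 22.5 and 19.7 TPM in WT. In the serine and glycine branch, the mitochondrial enzymes SHMT2 (0.70) and MTHFD2 (0.46) rose. The ATF4 list also holds tRNA synthetase genes, among them AARS, CARS and MARS, so its counts and the next are not independent. Of 20 cytosolic tRNA synthetases, 10 rose, 1 fell and 9 did not pass, where 20.5% of all genes tested rose and 25.9% fell. With median-of-ratios scaling 15 of the synthetases rose and 1 fell. WARS, for tryptophan, rose the most, with 331, 323 and 299 TPM in 5-FU res and 154, 159 and 151 TPM in WT. GARS and SARS rose by 0.70 and 0.62, and LARS, for leucine, fell by 0.56 on the log2 scale. Outside the naming rule, PCK2 (-0.13, adjusted p = 0.0732) and AARS (0.08, adjusted p = 0.136) did not pass.

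The ATF4 composite element TGATGNAA, on either strand, stood in 1270 of 35116 promoters (3.62%), from 1217 of 27305 genes (4.46%), and in 12 of the 28 members of the list that had a promoter. Stretches before the start of FGF21, a leading member, and of ASNS, the asparagine synthetase that rose by 0.61 and was chosen for its match, are shown with the element in capitals.
FGF21 chr19:48755404-48755523, plus strand: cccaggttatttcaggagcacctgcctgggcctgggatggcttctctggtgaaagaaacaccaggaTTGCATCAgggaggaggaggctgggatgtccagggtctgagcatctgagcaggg
ASNS chr7:97872409-97872528, minus strand: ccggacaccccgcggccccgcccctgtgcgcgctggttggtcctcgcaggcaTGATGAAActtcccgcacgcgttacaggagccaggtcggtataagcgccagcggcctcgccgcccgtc
The element began 54 bases before the start in FGF21, where it reads on the opposite strand, and 68 bases before it in ASNS. A match of letters is a description of the sequence, and no binding was measured.

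**Figure D2:**
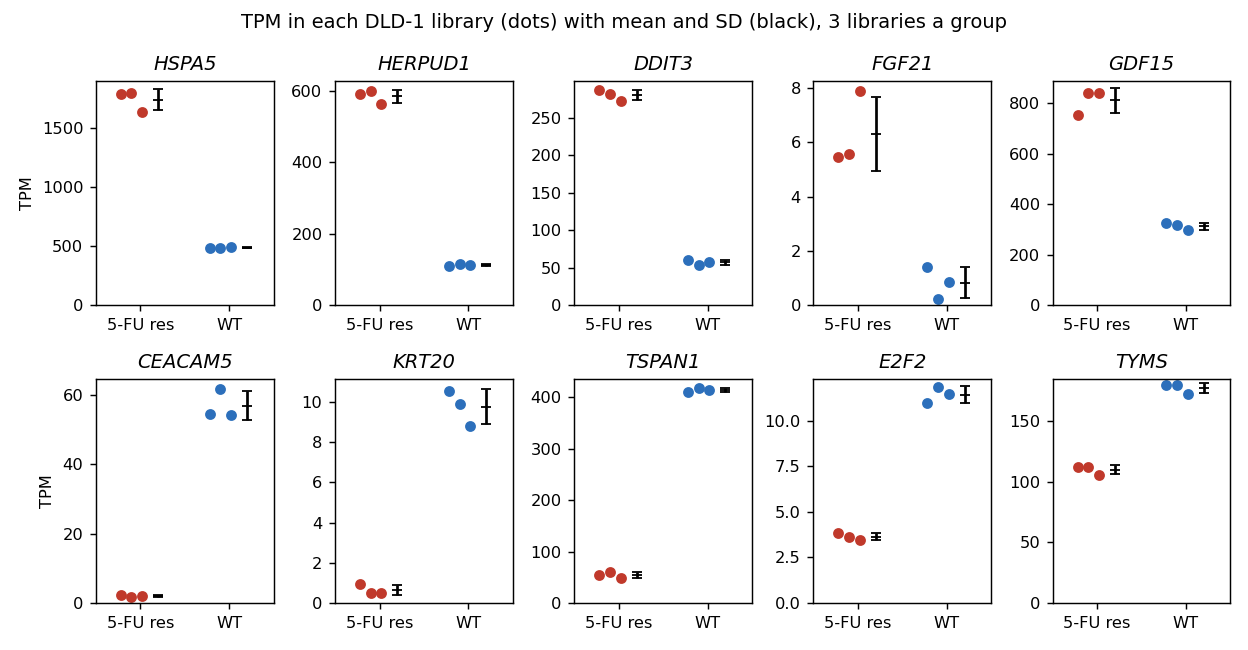
TPM of 10 genes in each DLD-1 library on axes that start at 0, with 5-FU res (left, red dots) and WT (right, blue dots), and the mean and SD of 3 libraries in black. HSPA5, HERPUD1, DDIT3, FGF21 and GDF15 were higher and CEACAM5, KRT20, TSPAN1, E2F2 and TYMS lower in all 5-FU res libraries. No panel showed an overlap, which also held for 56.2% of all genes tested.

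The DLD-1 5-FU res libraries were compared directly with the DLD-1 OX res libraries, which shows whether the stress genes were at the same level in both resistant derivatives of the line. The WT group is shared by both, so only this direct contrast was used. Genes of the unfolded protein response were higher in 5-FU res for 26 of 29 members and lower for 1, against 18.3% of all genes higher and 44.6% lower. HSPA5 had 385, 394 and 381 TPM in OX res, below every 5-FU res library, with a difference of 2.16 on the log2 scale (adjusted p = 7.97e-12). HERPUD1 had 76.8, 79 and 78.3 TPM in OX res (difference 2.89). DDIT3 had 36.1, 33.9 and 43.5 TPM in OX res (difference 2.86). Of the 35 ATF4 targets tested, 34 were higher in 5-FU res than in OX res and the other did not pass. The counts for both lists were the same with median-of-ratios scaling. Over all genes, 344 (2.55%) rose and 804 (5.97%) fell by more than 1 on the log2 scale relative to OX res, which became 442 and 566 with median-of-ratios scaling, and the median of all genes was -0.16 against 0.00.

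The same comparison in the other lines shared no library with DLD-1. The log2 fold change of HSPA5 was -1.31 in HCT116 and 0.28 in SW480. The DLD-1 change exceeded that of HCT116 by 3.15 (adjusted p = 1.36e-20) and that of SW480 by 1.56 (adjusted p = 1.22e-15) in an interaction test over all 27 libraries. HSPA5 was among the 5 largest upward differences from HCT116, and other leading members differed from it. HERPUD1 changed by -0.76 in HCT116 and 1.32 in SW480, and SDF2L1 by -1.81 and -0.16. DNAJB9 rose in both, by 0.83 in HCT116 and 1.69 in SW480. Of the 29 genes of the list, 21 changed more upwards in DLD-1 than in HCT116 and 1 less, where 23.3% and 40.4% of all genes did. Against SW480 the counts were 18 and 2, where 14.6% and 54.8% of all genes did. With median-of-ratios scaling 23 changed more upwards than in HCT116 and the other 6 did not pass, and against SW480 the counts were 27 and 1. Of 36 ATF4 targets, 33 were higher and 2 lower against HCT116 with both scalings, and 26 higher and 6 lower against SW480, or 31 and 1 with median-of-ratios scaling. With a difference beyond 1 on the log2 scale, 811 of 15801 genes (5.13%) were higher and 2114 (13.4%) lower against HCT116, or 1325 and 1499 with median-of-ratios scaling, and 553 (3.5%) and 3157 (20.0%) against SW480, or 1262 and 1560. Over all genes the interaction had a median of -0.17 against HCT116 and -0.42 against SW480, and -0.00 and -0.05 with median-of-ratios scaling.

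**Figure D3:**
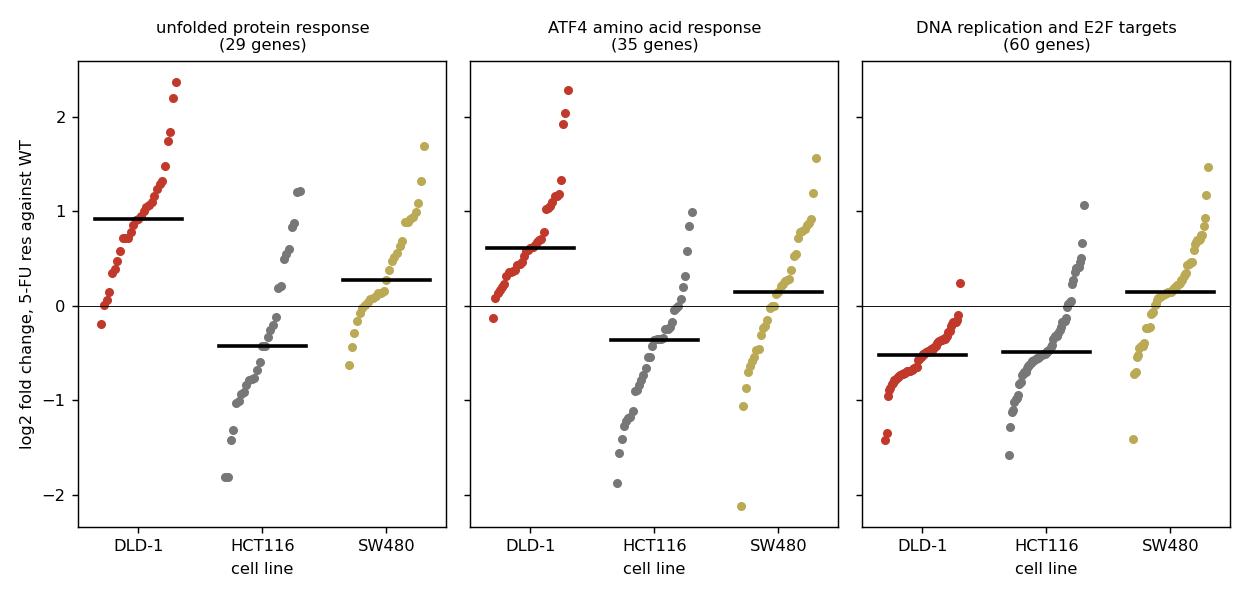
Log2 fold change of 5-FU res against WT in DLD-1, HCT116 and SW480 for each gene (dots, ordered by value) of 3 lists, with the median as a black line. The unfolded protein response had medians of 0.92, -0.43 and 0.28, the ATF4 targets of 0.61, -0.36 and 0.15, and the replication genes of -0.52, -0.49 and 0.15, in DLD-1, HCT116 and SW480. The median of all genes was -0.03, 0.13 and 0.39, and with median-of-ratios scaling the SW480 medians of the 3 lists turned negative, at -0.17, -0.24 (36 genes tested across the lines) and -0.30.

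Genes of intestinal differentiation were lower in 5-FU res cells. Of 56 genes, 25 were tested, 19 fell, 3 rose and 3 did not pass, with a median log2 fold change of -0.93. By comparison, 25.9% of all genes tested fell and 20.5% rose. This list too was chosen with earlier results of these data known. CEACAM5, the carcinoembryonic antigen of the cell surface, had 2.22, 1.58 and 2.11 TPM in 5-FU res, against 54.5, 61.6 and 54.2 TPM in WT, and fell by 4.29 on the log2 scale (adjusted p = 4.65e-11). CEACAM6, a related adhesion molecule, had 2.36, 1.65 and 2.06 TPM in 5-FU res and 40.7, 38 and 37.8 TPM in WT. KRT20, a keratin of mature colonic surface cells, had 0.923, 0.511 and 0.509 TPM in 5-FU res and 10.6, 9.91 and 8.84 TPM in WT. None of these 3 genes exceeded 2.36 TPM in a 5-FU res library. GPA33, a surface antigen of intestinal epithelium, had 0.230, 0.318 and 0.127 TPM in 5-FU res and 5.28, 5.97 and 7.07 TPM in WT. In the CEACAM family sequence is shared between genes, and how reads that fit several members were counted is not given in the sources used here.

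Secreted products were among the members too. REG4, a lectin, had 82.3, 82.5 and 76.7 TPM in 5-FU res and 386, 358 and 399 TPM in WT. The trefoil peptide TFF3 had 29.4, 35.2 and 34.5 TPM in 5-FU res and 123, 119 and 123 TPM in WT. Its relative TFF2 had 16.2, 19.5 and 18.4 TPM in 5-FU res and 51.1, 59.6 and 53.9 TPM in WT. Some members went the other way. The gel-forming mucin MUC5AC, the disulfide isomerase AGR2, which works in the ER, and the transcription factor GATA6 rose by 1.49, 0.97 and 0.33, and they are named after their values were seen. Of the transcription factors of the list, also given with their values known, CDX2 had 91, 94.8 and 87.3 TPM in 5-FU res and 198, 193 and 189 TPM in WT, HNF4A fell by 0.44 and KLF4 by 0.93 on the log2 scale, while SPDEF (-0.53, adjusted p = 0.0903) did not pass. Among epithelial junction genes, 21 of 40 fell and 9 rose, where 25.9% of all genes tested fell and 20.5% rose. At one end stood the desmosomal cadherin DSC2 (-2.19), the epithelial transcription factor EHF (-1.52) and the intestinal cadherin CDH17 (-1.46). At the other end stood the tight junction gene CLDN1 (1.30). CDH1, the gene of E-cadherin and outside the naming rule, fell by 0.19 on the log2 scale.

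**Figure D4:**
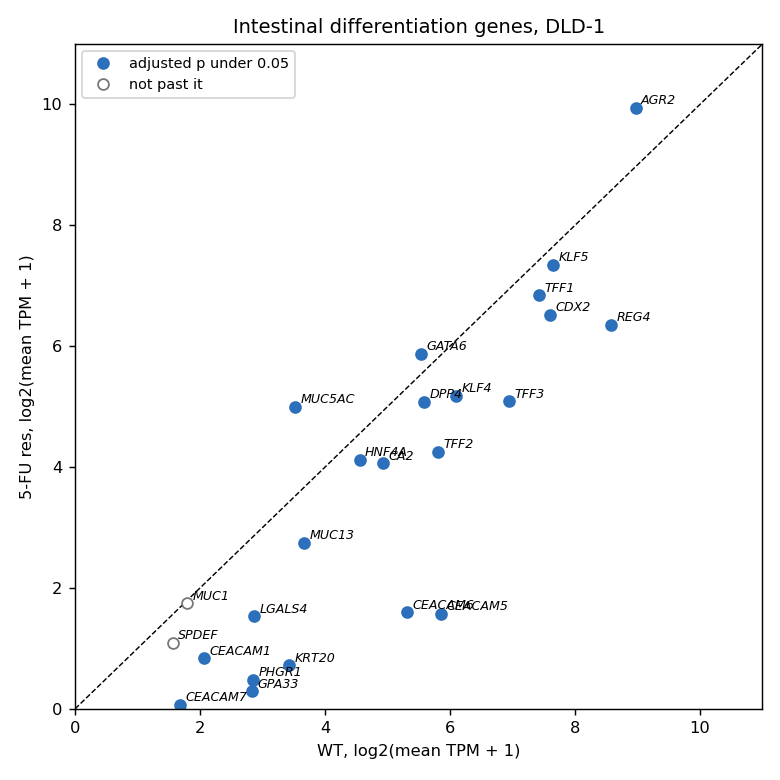
Mean level of 24 of the 25 intestinal differentiation genes tested as log2(mean TPM + 1), with 5-FU res on the vertical and WT on the horizontal axis. Filled dots passed an adjusted p of 0.05, and the dashed line marks equal levels. Most genes lie below it, and CEACAM5, CEACAM6 and KRT20 lie farthest below, while AGR2 and MUC5AC lie above it.

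The differences between lines were tested for this list too. Of 30 genes, 19 changed more downwards in DLD-1 than in HCT116 and 4 more upwards, and 24 and 4 against SW480, where 40.4% and 54.8% of all genes changed more downwards. With median-of-ratios scaling these counts were 18 and 5, and 23 and 5. The log2 fold change of CEACAM5 was 0.12 in HCT116 and -0.03 in SW480. Of the 30 genes, 4 rose and 5 fell in HCT116, and 13 rose and 2 fell in SW480. With median-of-ratios scaling 4 rose and 8 fell in HCT116, and 12 rose and 2 fell in SW480. The median of all genes in TPM was 0.13 in HCT116 and 0.39 in SW480. The shares of all genes that rose or fell within these lines are not given here, so these counts have no background beside them. A gene at or near 0 in a line cannot fall there, and levels in HCT116 and SW480 are not given here. Such genes may therefore add to the counts that changed more downwards in DLD-1. Against DLD-1 OX res, 7 of the 25 genes were higher and 16 lower in 5-FU res, or 9 and 12 with median-of-ratios scaling, where 18.3% and 44.6% of all genes were higher and lower. Of the genes that fell most against WT, CEACAM5 had 76.9, 91.9 and 82 TPM in OX res, TSPAN1 413, 456 and 409.7 TPM and PSCA 109.9, 109 and 102 TPM, all above every 5-FU res library. By contrast, REG4 had 93.3, 97 and 85.4 TPM in OX res, which differed from 5-FU res by -0.19 on the log2 scale (adjusted p = 0.0139).

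Several of the genes that fell the most encode proteins of the cell surface or secreted proteases. PSCA, a surface protein anchored by a lipid, had 1.94, 0.781 and 0.825 TPM in 5-FU res and 48.6, 53.9 and 53.6 TPM in WT and showed the largest fall (-4.64 ± 0.15, adjusted p = 7.16e-10). The tetraspanin TSPAN1 had 54.2, 60.3 and 49.4 TPM in 5-FU res and 411, 418 and 415 TPM in WT. TSPAN8, of the same family, had 231, 234 and 218 TPM in 5-FU res and 682, 701 and 664 TPM in WT. All 5-FU res libraries were below all WT libraries in these 3 genes. The kallikrein KLK10, a secreted serine protease, had 7.62, 7.67 and 6.91 TPM in 5-FU res and 75.9, 79.8 and 82.4 TPM in WT. Its neighbour KLK11 had 0.596, 0.494 and 0.151 TPM in 5-FU res and 20.3, 19.9 and 22.1 TPM in WT. Neither kallikrein showed an overlap, but the genes with the largest falls were chosen among those without overlap. Of all genes tested, 56.2% showed none. C15orf48, which encodes a small mitochondrial protein, had 1.12, 0.637 and 0.247 TPM in 5-FU res and 31.1, 35.1 and 31.1 TPM in WT. FAM3D, a cytokine-like protein of the gut, and SEMA5A, a semaphorin, fell by 3.25 and 3.20 on the log2 scale. FLNA, the actin crosslinker filamin A, had 66.1, 69.2 and 66.4 TPM in 5-FU res and 276, 281 and 272 TPM in WT. SELENBP1, a selenium-binding protein, had 154, 152 and 147 TPM in 5-FU res and 422, 455 and 446 TPM in WT.

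Some changed genes lay next to each other. Of 26255 symbols, 22121 matched the GRCh37 annotation directly and 1341 by an older symbol, and 12938 of the tested genes could be placed. On this map 28 runs of neighbouring tested genes changed in the same direction by more than 1 on the log2 scale, 15 upwards and 13 downwards. Among them, ARHGAP42 and TMEM133 were placed at identical coordinates and may be a single locus. In other runs ITGA9, SEMA3B, RGMB and RDH10 each stood with their own antisense entry, and reads of such pairs may be mixed. How many runs would arise without a link between neighbours was not estimated. CEACAM7, CEACAM5 and CEACAM6 formed a run on chromosome 19 from 42177231 to 42276116 and fell by 1.58, 4.29 and 3.73. KLK10 and KLK11 lay on the same chromosome from 51515995 to 51531295. On chromosome 21, TFF3 and TFF2 spanned 43731777 to 43771106. Upwards, GSTM4 and GSTM2, glutathione transferases, spanned 110198721 to 110252173 on chromosome 1. GSTM4 had 281, 278 and 284 TPM in 5-FU res and 74.1, 76.1 and 82.8 TPM in WT. GSTM2 had 35.9, 26.9 and 29 TPM in 5-FU res and 6.03, 8.26 and 6.70 TPM in WT. The chemokine genes CXCL8, PF4 and CXCL5 spanned 74606236 to 74864394 on chromosome 4 and rose by 2.49, 1.70 and 1.05. The glutathione transferases, kallikreins and CEACAM genes are families of related sequence, and reads may be split between members.

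The genes that rose the most outside the stress lists were of several kinds. CST1, a secreted inhibitor of cysteine proteases, had 31.8, 31 and 31.9 TPM in 5-FU res and 2.64, 2.87 and 2.60 TPM in WT (3.14 ± 0.08). EPHB6, an ephrin receptor without kinase activity, had 94.6, 101 and 97.8 TPM in 5-FU res and 15.5, 15.8 and 14.2 TPM in WT (2.61 ± 0.06). In OX res cells EPHB6 had 88.3, 90.1 and 80.2 TPM, a difference of 0.18 on the log2 scale (adjusted p = 0.0188). CHI3L1, a secreted chitinase-like glycoprotein, had 20.6, 21.4 and 18.6 TPM in 5-FU res and 3.52, 2.97 and 1.75 TPM in WT. ENTPD3, an enzyme that cleaves extracellular ATP, and HSD17B2, which inactivates sex steroids, rose by 2.52 and 2.32. SLC2A3, a glucose transporter, had 6.46, 6.75 and 7.13 TPM in 5-FU res and 0.799, 0.409 and 0.163 TPM in WT. FASLG, the ligand of the death receptor FAS, had 5.42, 5.13 and 3.38 TPM in 5-FU res and 0, 0.297 and 0.0915 TPM in WT. Both were under 1 TPM in WT, where the log2(TPM + 1) scale compresses differences. PRR9, PHLDB2, ANKRD1 and APOC1 rose by 2.71, 2.35, 2.40 and 2.25.

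The 13 CRC stem cell markers that the study uses were examined one by one. Of these, 11 were tested, 7 fell and the other 4 did not pass, with a median log2 fold change of -0.50. Over all genes tested, 25.9% fell. ALDH1A1, an aldehyde dehydrogenase, fell most, with 0.687, 0.456 and 0.227 TPM in 5-FU res and 7.81, 8.08 and 7.97 TPM in WT. CD24, a surface glycoprotein, had 113, 116 and 109.8 TPM in 5-FU res and 224, 244 and 231 TPM in WT. CD44, a hyaluronan receptor, had 95.3, 99.5 and 89.3 TPM in 5-FU res and 137, 146 and 139 TPM in WT. No library overlapped in these 3. LGR5 (-0.54), DPP4 (-0.50) and PROM1 (-0.80), the gene of CD133, were lower, and EPCAM differed by -0.13 (adjusted p = 0.0261), a call that was lost in 4 of the other settings tried. POU5F1 (-0.12), ALCAM (-0.05), ITGB1 (-0.03) and ITGAV (0.11) did not pass, with adjusted p of 0.645, 0.537, 0.678 and 0.188. SOX2 was at 0 in all 6 libraries and NANOG did not exceed 0.181 TPM, so neither was tested. In the interaction test 9 of the 13 changed more downwards in DLD-1 than in HCT116, and 12 more downwards than in SW480 with 1 the other way, where 40.4% and 54.8% of all genes changed more downwards. With median-of-ratios scaling 1 of them changed more upwards than in HCT116.

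GDF15, a stress-induced cytokine of the TGF-β superfamily, had 754, 838 and 839 TPM in 5-FU res and 324, 318 and 297 TPM in WT. The groups did not overlap, and the log2 fold change was 1.37 ± 0.08 (adjusted p = 4.76e-08). In OX res cells it had 842, 696 and 682 TPM, a difference of 0.14 (adjusted p = 0.136) that did not pass. Its change was 0.89 in HCT116 and 3.22 in SW480, and the DLD-1 change was larger than that of HCT116 by 0.48 (adjusted p = 7.37e-04) and smaller than that of SW480 by 1.85 on the log2 scale (adjusted p = 1.99e-12). KLF4, a factor of both differentiation and pluripotency, had 34.1, 35.8 and 35.4 TPM in 5-FU res and 68, 64.5 and 70.6 TPM in WT. MYC had 160.3, 161 and 155 TPM in 5-FU res and 209, 217 and 216 TPM in WT. Both were lower in every 5-FU res library.

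Cell cycle genes were lower by small amounts. Of 60 genes of DNA replication and E2F targets, 57 fell, 1 rose and 2 did not pass, with a median log2 fold change of -0.52. Against WT, 25.9% of all genes tested fell and 20.5% rose. E2F2, an activating E2F factor, had 3.86, 3.63 and 3.46 TPM in 5-FU res and 11, 11.9 and 11.5 TPM in WT. E2F8, a repressor of the family, had 8.75, 7.56 and 8.37 TPM in 5-FU res and 21, 23.7 and 22.6 TPM in WT. These were the only members whose fall exceeded 1 on the log2 scale. PCNA, the replication clamp, had 219, 222 and 181 TPM in 5-FU res and 358, 347 and 329 TPM in WT. CDC6, which loads the replicative helicase and is named after its value was seen, was the member that rose (0.24). Of 52 mitosis genes, 48 fell and the other 4 did not pass, with a median of -0.38. MKI67, the proliferation marker Ki-67, had 68.3, 72.1 and 62.6 TPM in 5-FU res and 117, 121 and 111 TPM in WT. All 60 replication genes and all 52 mitosis genes were lower in 5-FU res than in OX res, with either scaling. Of all genes tested, 44.6% were lower and 18.3% higher in 5-FU res than in OX res, in TPM. Against the change in HCT116, 16 of the 60 were higher and 24 lower, which turned to 29 and 18 with median-of-ratios scaling. Against SW480 the counts were 3 and 46, or 15 and 35. Of all genes, 23.3% were higher and 40.4% lower against HCT116, and 14.6% and 54.8% against SW480, so the share against HCT116 was near that of all genes.

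Genes that act on fluorouracil and on nucleotides moved in both directions. Of 33 genes, 26 were tested, 13 fell, 3 rose and 10 did not pass, with a median of -0.19. Over all genes tested, 25.9% fell and 20.5% rose. TYMS, the target of the drug, had 112, 112 and 106 TPM in 5-FU res and 179, 179 and 172 TPM in WT (-0.68 ± 0.04, adjusted p = 1.76e-07). TK1, thymidine kinase, had 149, 149.7 and 138 TPM in 5-FU res and 219, 228 and 236 TPM in WT. UCK2, a uridine kinase, had 27, 27.6 and 28.2 TPM in 5-FU res and 41, 42.5 and 39.8 TPM in WT. Both kinases were lower without overlap. SLC29A1, a nucleoside transporter, had 56.1, 57.8 and 52.6 TPM in 5-FU res and 91.9, 95.3 and 92.2 TPM in WT. All 4 genes were lower in every 5-FU res library. UPP1, which can convert fluorouracil to its ribonucleoside, had 41.7, 39.7 and 39.9 TPM in 5-FU res and 17.9, 19.1 and 19.4 TPM in WT (1.06 ± 0.06). NT5E, the surface enzyme CD73 that dephosphorylates nucleotides, had 259, 279 and 247 TPM in 5-FU res and 99, 102 and 94.3 TPM in WT (1.40 ± 0.05). UMPS, which joins fluorouracil to ribose phosphate, fell by 0.48 on the log2 scale. DPYD, which degrades the drug, was at 0 in 5 of the 6 libraries and TYMP did not exceed 0.658 TPM, so neither was tested.

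In the folate cycle, 6 of 20 genes rose and 5 fell. The folate receptor FOLR1 had 2.33, 2.36 and 3.33 TPM in 5-FU res and 0.920, 0.658 and 0.594 TPM in WT. Of 19 genes of uracil excision and mismatch repair, 9 fell and 1 rose, or 9 and 3 with median-of-ratios scaling. UNG, which cuts uracil and fluorouracil from DNA, had 45.7, 48.5 and 44.3 TPM in 5-FU res and 80.8, 84.1 and 82.3 TPM in WT. Of 30 genes of the RNA exosome and pseudouridine synthesis, 10 fell and 3 rose. Of 28 ABC transporters 5 rose and 8 fell, each by less than 1 on the log2 scale. Over all genes tested, 20.5% rose and 25.9% fell, near the shares of the ABC transporters. The drug efflux pump gene ABCC2 came closest, with 1.92, 2.28 and 1.93 TPM in 5-FU res and 0.517, 0.551 and 0.730 TPM in WT.

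**Figure D5:**
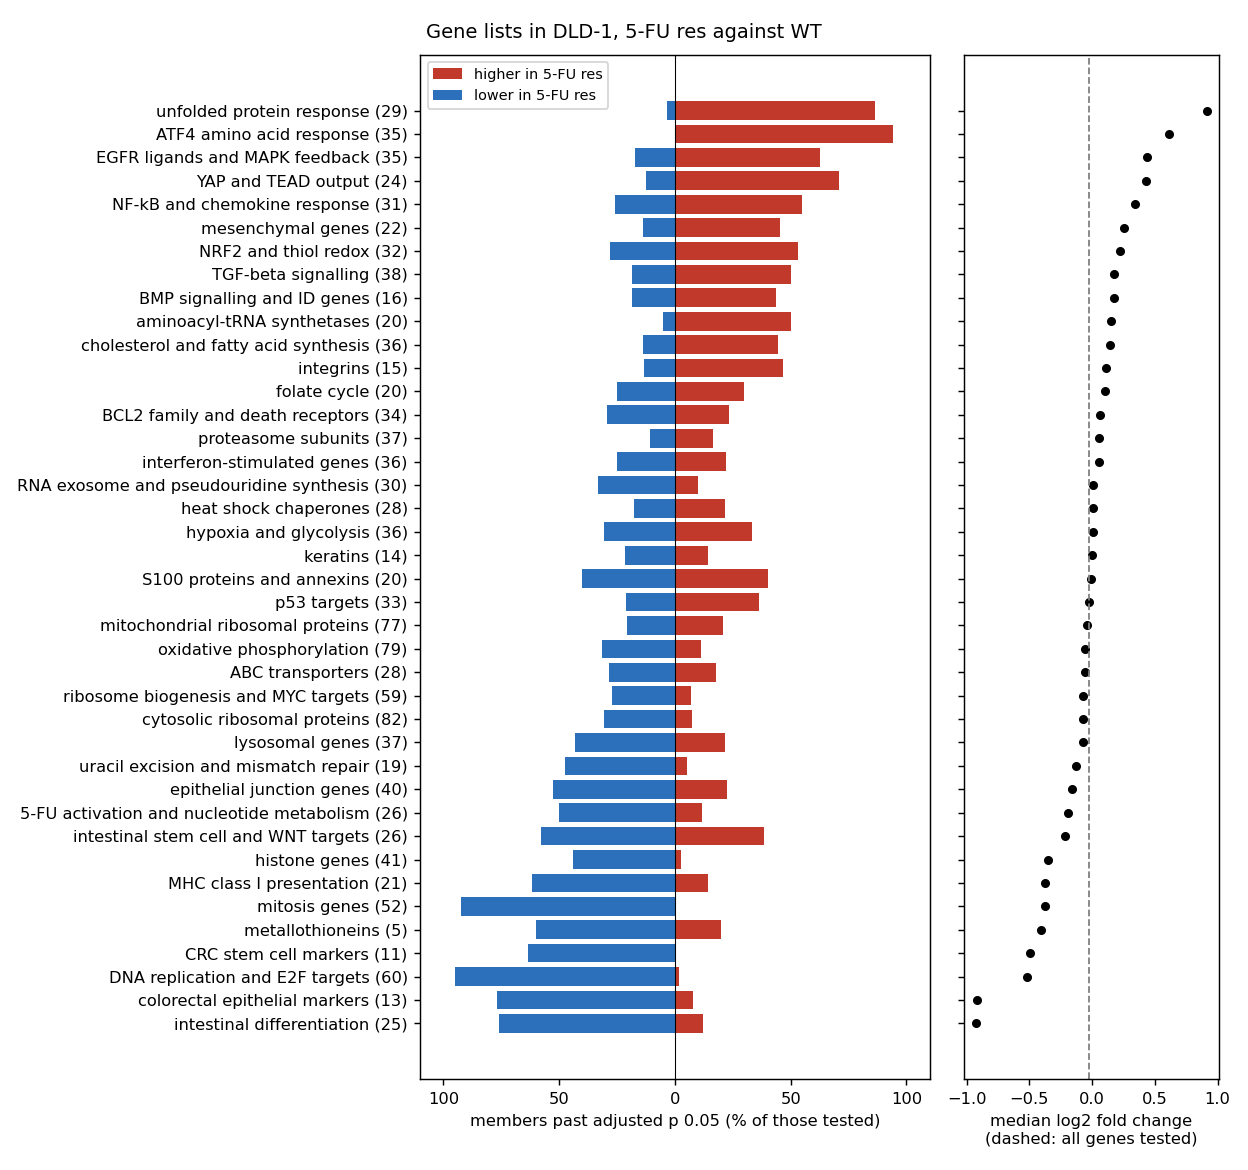
Gene lists with at least 5 genes tested (number in brackets), ordered by median log2 fold change of 5-FU res against WT. Bars give the percentage of tested members that were higher (red, right) or lower (blue, left) in 5-FU res at an adjusted p of 0.05, and the dots on the right the median, with the median of all genes as a dashed line. The unfolded protein response and ATF4 targets stand at the top (25 of 29 and 33 of 35 higher) and intestinal differentiation at the bottom (19 of 25 lower). Of all genes, 20.5% were higher and 25.9% lower. The lists were chosen with earlier results of these data known, so their order is not independent of that choice.

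Among signalling lists, ligands of the epidermal growth factor receptor and feedback genes of the MAPK pathway were higher for 22 of 35 members and lower for 6. Their median was 0.43. The shares over all genes tested were 20.5% higher and 25.9% lower. AREG, a ligand, had 24.9, 29.8 and 26.3 TPM in 5-FU res and 10.2, 7.85 and 7.08 TPM in WT. DUSP6, a phosphatase that acts on ERK, had 295, 308 and 281 TPM in 5-FU res and 140.3, 144 and 142 TPM in WT. The groups overlapped in neither gene. Of 24 genes of YAP and TEAD output, 17 rose and 3 fell, with a median of 0.43. ANKRD1, a nuclear ankyrin protein, had 27.5, 26.3 and 25.1 TPM in 5-FU res and 4.36, 3.88 and 4.26 TPM in WT. The kinase NUAK2 had 9.44, 10.1 and 9.19 TPM in 5-FU res and 30.6, 34.9 and 31.1 TPM in WT. CTGF, a common YAP reporter named after its value was seen, fell by 0.67 on the log2 scale. Of 31 genes of the NF-κB and chemokine response, 17 rose and 8 fell. CXCL8, interleukin 8, had 10.8, 12.4 and 10.9 TPM in 5-FU res and 1.21, 1.11 and 1.30 TPM in WT. CXCL5 had 208, 208 and 187 TPM in 5-FU res and 98.7, 96 and 95 TPM in WT.

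Of 38 genes of TGF-β signalling, 19 rose, 7 fell and 12 did not pass, with a median of 0.18. By comparison, 20.5% of all genes tested rose and 25.9% fell. The ligand TGFB2 had 17, 18.6 and 16.6 TPM in 5-FU res and 4.30, 4.22 and 3.86 TPM in WT. TGFBI, a secreted matrix protein induced by the pathway, had 449, 460.3 and 423 TPM in 5-FU res and 127, 134 and 127 TPM in WT. No library overlapped in either gene. The receptors TGFBR1 (-0.04) and TGFBR2 (-0.14) did not pass, with adjusted p of 0.608 and 0.0754, and THBS1 (-0.88), which activates latent TGF-β, was lower, all 3 named after their values were seen. In OX res cells TGFB2 had 28.9, 32.3 and 31.2 TPM, above every 5-FU res library (5-FU res minus OX res -0.79, adjusted p = 2.13e-06). Of 22 mesenchymal genes tested, 10 rose and 3 fell, among them the matrix protease gene MMP14 with 18.2, 18.4 and 18.8 TPM in 5-FU res and 5.53, 5.44 and 6.65 TPM in WT. Of 26 intestinal stem cell and WNT target genes, 10 rose and 15 fell, with the WNT inhibitor NKD1 at 1.43 and the ion transporter SLC12A2 at -1.22.

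Of 32 genes of the NRF2 and thiol redox list, 17 rose and 9 fell, where 20.5% of all genes tested rose and 25.9% fell. NQO1, a quinone reductase, had 272, 268 and 251 TPM in 5-FU res and 111, 113 and 113 TPM in WT. OSGIN1, an oxidative stress protein, had 24, 24.2 and 22.7 TPM in 5-FU res and 11, 9.64 and 9.47 TPM in WT. AKR1C2, an aldo-keto reductase, fell by 1.28 on the log2 scale, and reads may be split between AKR1C genes. Of 33 p53 targets 12 rose and 7 fell, with a median of -0.03, equal to that of all genes. CDKN1A, the cell cycle inhibitor p21, had 56.1, 52.6 and 55.1 TPM in 5-FU res and 25.4, 27.3 and 27.1 TPM in WT. The pro-apoptotic gene PMAIP1, listed with the BCL2 family, had 84, 80.4 and 74.6 TPM in 5-FU res and 30, 26.2 and 26.6 TPM in WT.

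Antigen presentation by MHC class I was lower, with 13 of 21 genes falling and 3 rising and a median of -0.38. HLA-B had 39.6, 43.4 and 36.5 TPM in 5-FU res and 95.9, 95.6 and 93.6 TPM in WT. PSMB9, a subunit of the immunoproteasome, had 3.60, 3.60 and 4.15 TPM in 5-FU res and 12.3, 10.1 and 12.4 TPM in WT. The 3 members that rose, named after their values were seen, were ERAP2, PDIA3 and the ER chaperone gene CALR, of which PDIA3 and CALR also stand in the unfolded protein response list. HLA genes vary between people and share sequence, so that their counts from a reference alignment are uncertain. Of 36 interferon-stimulated genes 8 rose and 9 fell, or 11 and 8 with median-of-ratios scaling. Over all genes tested 20.5% rose and 25.9% fell, near the shares of the interferon-stimulated genes.

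Of 82 cytosolic ribosomal protein genes 25 fell and 6 rose with a median of -0.07, or 23 and 10 with median-of-ratios scaling. Each changed by less than 1 on the log2 scale. For this and the next lists, the shares over all genes tested were 20.5% higher and 25.9% lower. Ribosomal protein genes held 19.1 ± 0.929% of all TPM in 5-FU res and 20.1 ± 0.323% in WT (SD, n = 3 each). Of 77 mitochondrial ribosomal protein genes 16 rose and 16 fell, and of 79 genes of oxidative phosphorylation 9 rose and 25 fell. Of 37 proteasome subunits 6 rose and 4 fell, or 14 and 4 with median-of-ratios scaling, and of 28 heat shock chaperones outside the ER 6 rose and 5 fell. Of 36 genes of cholesterol and fatty acid synthesis 16 rose and 5 fell, with a median of 0.14 on the log2 scale. Of 41 histone genes 18 fell and 1 rose, with a median of -0.35, and 6 of them fell by more than 1 on the log2 scale. HIST1H1C, a linker histone, had 43.7, 46.4 and 42 TPM in 5-FU res and 136, 137 and 156 TPM in WT. Most histone transcripts lack a poly(A) tail, so libraries made from mRNA hold few of them.

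Of the remaining lists, ribosome biogenesis and MYC targets had 4 of 59 genes higher and 16 lower, or 8 and 15 with median-of-ratios scaling. Over all genes tested, 20.5% were higher and 25.9% lower. Hypoxia and glycolysis had 12 of 36 higher and 11 lower, lysosomal genes 8 of 37 and 16, and S100 proteins and annexins 8 of 20 and 8. BCL2 family and death receptor genes had 8 of 34 higher and 10 lower, near the shares of all genes. BMP signalling had 7 of 16 higher and 3 lower, integrins 7 of 15 and 2, keratins 2 of 14 and 3, and metallothioneins 1 of 5 and 3. Of 82 cancer-testis antigen genes only MAGEB17 was tested, with 2.78, 3.22 and 3.20 TPM in 5-FU res and 0.479, 0.571 and 0.901 TPM in WT.

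Among the largest changes were entries for small nucleolar RNAs, which libraries made from mRNA capture poorly. SNORA68 had 154, 59.8 and 81.7 TPM in 5-FU res and 48.8, 0 and 0 TPM in WT (4.64 ± 1.47, adjusted p = 0.0213), and the call was lost in 6 of the other settings tried. SNORA24 had 28.7, 0 and 0 TPM in 5-FU res and 54.7, 32.8 and 101 TPM in WT, with a log2 fold change of -4.22 ± 0.99. Both entries varied strongly within a group, and their standard errors were far above those of the protein-coding genes named here.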

How the data were processed

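RNA was extracted with the miRNeasy Micro kit, and stranded mRNA libraries were converted for and read on a DNBSEQ-G400 as 100-base single reads. Per the study's methods and the submitters' processing notes, Trimmomatic 0.38 trimmed the reads and TopHat2 2.1.1 placed them on hg19, helped by SAMtools 0.1.18 and by Bowtie2 2.2.8. The authors deposited FPKM values per gene, from Cufflinks 2.2.1 or Cuffdiff 2.2.1, since the sources name both. FPKM hides depth, so no counting interval could be given and a fold of a low gene is less certain. Whether strand was used in counting is not given in the sources used here. Reads of a gene and its antisense partner may therefore be mixed.

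Groups came from the sample titles. TPM was the FPKM divided by its library sum. Genes with at least 1 TPM in 3 libraries of the fit were tested on log2(TPM + 1) with limma 3.58.1 (R 4.3.3; group means, eBayes with trend, Benjamini-Hochberg), in 1 fit of the 9 DLD-1 libraries or, for differences between lines, of all 27. Genes were called changed beyond 1 in size on the log2 scale with an adjusted p under 0.05; members of lists were counted higher or lower at the adjusted p alone. The study's Wilcoxon test cannot pass with 3 against 3 libraries, where the smallest exact permutation p is 0.1. No 2 libraries were identical.

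Named were the 15 genes with the largest change in each direction among changed genes whose groups did not overlap, up to 4 members of each of 44 lists by size of change among those with an adjusted p under 0.05, the 5 changed genes per direction with the largest difference of mean TPM, the 13 CRC stem cell markers with GDF15 and genes of fluorouracil metabolism, the 5 largest differences per direction from each other line, and neighbours in runs. The members and lists were chosen with earlier results of these data known. Positions came from a GRCh37 annotation and sequences from RefSeq (GRCh38.p14). Alternatives were median-of-ratios and quantile scaling, FPKM as deposited, a pseudocount of 0.1, no filter, a mean of 5 TPM, the replicate number as a block, eBayes without trend, only the groups compared, and leaving out each library. The code was tested on simulated data. A few genes, 1 of them left out of the plot of differentiation genes, are not reported here.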

Additional observations from a re-analysis of the deposited data

Results flagged for a closer look

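For genes that changed in DLD-1, the 5 largest differences in each direction between the 5-FU res against WT change of DLD-1 and that of another line are given, tested as an interaction with limma over all 27 libraries and expressed on the log2 scale. They were chosen by their size.

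Against HCT116, the change in DLD-1 was lower for CEACAM5 (difference -4.40, with -4.29 in DLD-1 and 0.12 in HCT116), C15orf48 (-4.41), the read-through entry TMEM256-PLSCR3 (-5.97) and the small nucleolar RNA entries SNORA4 (-7.02) and SNORA24 (-5.46). The difference of SNORA24 lost its call in 9 of the other settings, with adjusted p from limma between 0.052 and 0.11. The change in DLD-1 was higher for the ER proteins HSPA5 (3.15, with 1.84 in DLD-1 and -1.31 in HCT116) and SDF2L1 (3.56), the glucose transporter SLC2A3 (3.74), the G protein regulator RGS2 (4.36) and the keratin-associated protein KRTAP3-1 (5.48). Part of each difference came from a fall in HCT116. SDF2L1, SLC2A3, RGS2 and KRTAP3-1 changed by -1.81, -1.30, -2.25 and -4.14 in HCT116, and by 1.75, 2.44, 2.11 and 1.34 in DLD-1.

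Against SW480, the change in DLD-1 was lower for the epithelial transcription factor EHF (-6.22, with -1.52 in DLD-1 and 4.70 in SW480), the kinase subunit PRKAR2B (-5.86), the protease KLK10 (-5.74), PSCA (-5.50) and the chloride channel family member CLIC5 (-4.40). It was higher for CCDC3 (4.71), the tetraspanin TSPAN2 (4.59), the glycoprotein CHI3L1 (4.42), the translation factor EIF5A2 (4.31) and the potassium channel KCNJ5 (3.95). In this order, their changes were -2.89, -3.13, -1.89, -2.69 and -2.59 in SW480, and 1.82, 1.46, 2.53, 1.62 and 1.36 in DLD-1.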

How the results depend on the processing

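Genes higher in 5-FU res than in WT numbered 177 instead of 286 with a mean of at least 5 TPM and 457 with a pseudocount of 0.1. The pseudocount of 0.1 also gave 399 instead of 237 lower. With FPKM as deposited 213 were higher and 159 lower, and with a mean of at least 5 TPM 179 were lower. Leaving out each library gave 249 to 303 higher and 210 to 255 lower. Of 239 named genes with an adjusted p under 0.05, 11 lost the call in some setting and 0 reversed. They were BCL2, EPCAM, ESAM, HIST1H2AD, HIST1H2AG, HIST1H2AM, ITGA9-AS1, KRT10, SEMA3B-AS1, SNORA4 and SNORA68, and the adjusted p from limma reached 0.0796 for EPCAM, 0.134 for SNORA4 and 0.0838 for SNORA68. Of 88 counts of list members, 23 moved in some setting, that is, passed a fixed ratio to the main count. In the next paragraph the settings named, besides leaving out each library, are those where a count passed that ratio.

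Against OX res, 197 genes were higher with a mean of at least 5 TPM, and 439 were lower with FPKM as deposited and 534 with quantile scaling. Leaving out each library gave 287 to 351 higher and 753 to 865 lower. Against HCT116, 1325 were higher with median-of-ratios scaling, and 1142 lower with FPKM and 1193 with quantile scaling, and leaving out each library gave 783 to 839 and 2014 to 2217. Against SW480, 1114 were higher and 1240 lower with FPKM, 1262 and 1560 with median-of-ratios scaling, and 1248 and 1259 with quantile scaling, and leaving out each library gave 530 to 580 and 3015 to 3287. The cause of these moves was not tested.

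Same-numbered 5-FU res and WT libraries deviated together with correlations of 0.085, 0.135 and 0.058, so the numbers were not taken to pair them, although each 5-FU res library correlated best with its own number. With the replicate block 288 genes were higher and 237 lower than in WT, 344 higher and 803 lower than in OX res, 810 and 2117 against HCT116, and 553 and 3157 against SW480. Depth limits low genes: 65 of the 523 changed genes averaged under 1 TPM in WT.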
